A study of Homo sapiens with 6 samples.

Results

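In LX-2 cells that expressed full-length ZNF469, the genomic interval of RAD51B and its neighbour ZFP36L1 held 37 regions in the deposited list of ZNF469 sites, and the windows of 2 further ZFP36 family genes held 5 more. LX-2 cells are immortalized human hepatic stellate cells, a type that lays down collagen in the liver. CUT&RUN releases and sequences DNA fragments from around the protein that an antibody recognizes, here ZNF469 itself, so endogenous ZNF469 could be recognized beside the transgene product. The 6 libraries formed 2 groups of 3. The cells of both groups were grown in ascorbate-containing medium, carried a piggyBac transgene that doxycycline switches on, and received 1 ug/mL doxycycline for 24 h. Clone3.4 carried full-length HA-tagged ZNF469, and clone3.1 carried dZF, a form from which most of the zinc fingers were deleted. The constructs were carried by different lines, so construct and line cannot be told apart, and the labels do not say what the clone names denote. The deposited lists hold no expression values, so the identity of the cells was not checked against marker genes.

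Members were the regions of both lists that overlapped RAD51B, ZFP36L1, ZFP36L2 or ZFP36 or the 50 kb on either side of each gene by at least 1 bp. There were 42 of 19108 regions in the full-length list and 0 of 54 in the dZF list. RAD51B was chosen by its count of full-length regions, which no other protein-coding gene equalled, so that count and the placement of its regions are given as a description with no test. The authors pooled 3 libraries into each list. No value per library exists in the lists, and no difference below has a replicate error. All positions are on hg38 and counted from 1, with genes and transcripts from GENCODE version 44.

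RAD51B encodes a protein that acts in a complex with RAD51C, RAD51D and XRCC2 in homologous recombination, the repair of broken DNA from an intact copy. The ZFP36 family proteins ZFP36 (tristetraprolin), ZFP36L1 and ZFP36L2 bind AU-rich elements near the end of mRNAs and recruit the CCR4-NOT deadenylase, so that the mRNA is shortened and degraded. AP-1, the dimer of FOS and JUN family proteins, binds the letters TGAGTCA, and its sites mark many enhancers of fibroblast-like cells.

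The sequences that carry these results are the summits of the strongest region in RAD51B, in the interval between RAD51B and ZFP36L1 (also the strongest of the ZFP36L1 window), near ZFP36L2 and near ZFP36. Each is 201 bases, centred on the summit. Capitals mark TGAGTCA or its reverse complement TGACTCA, except in the ZFP36 window, where they mark TGGAATG, the reverse complement of the TEAD motif CATTCCA. The ZFP36L2 stretch held none of the 5 motifs searched.
RAD51B strongest region, chr14:68695482-68695682, forward strand: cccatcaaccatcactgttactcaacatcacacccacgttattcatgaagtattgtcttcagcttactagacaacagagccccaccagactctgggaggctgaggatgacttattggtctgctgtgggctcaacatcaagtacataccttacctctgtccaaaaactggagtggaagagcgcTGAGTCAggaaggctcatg
RAD51B to ZFP36L1 interval, chr14:68784977-68785177, forward strand: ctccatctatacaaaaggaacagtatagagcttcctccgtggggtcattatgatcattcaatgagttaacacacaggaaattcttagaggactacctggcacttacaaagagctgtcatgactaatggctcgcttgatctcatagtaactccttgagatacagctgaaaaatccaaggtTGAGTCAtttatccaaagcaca
ZFP36L2 window, chr2:43269245-43269445, forward strand: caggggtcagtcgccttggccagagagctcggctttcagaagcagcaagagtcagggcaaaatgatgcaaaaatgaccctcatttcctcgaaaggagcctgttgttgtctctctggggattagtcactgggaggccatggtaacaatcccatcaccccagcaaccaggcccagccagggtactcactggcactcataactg
ZFP36 window, chr19:39412337-39412537, forward strand: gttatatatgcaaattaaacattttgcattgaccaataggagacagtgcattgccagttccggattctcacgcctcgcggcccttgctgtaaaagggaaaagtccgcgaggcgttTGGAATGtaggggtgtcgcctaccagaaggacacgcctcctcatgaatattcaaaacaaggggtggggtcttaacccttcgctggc

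In 4 of the 42 regions, an AP-1 site was centred within 10 bp of the summit, all of them in RAD51B. Their 61 bases around the summit are shown because the site and the point of highest coverage coincide there, a choice made after the values were seen. They are named by their distance from the start of RAD51B.
RAD51B at 167 kb, chr14:67986680-67986740, forward strand: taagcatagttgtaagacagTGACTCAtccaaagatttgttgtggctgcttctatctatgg
RAD51B at 716 kb, chr14:68535554-68535614, forward strand: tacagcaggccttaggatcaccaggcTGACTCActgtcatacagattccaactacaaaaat
RAD51B at 728 kb, chr14:68547667-68547727, forward strand: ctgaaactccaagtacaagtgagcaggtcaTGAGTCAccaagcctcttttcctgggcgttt
RAD51B at 758 kb, chr14:68577929-68577989, forward strand: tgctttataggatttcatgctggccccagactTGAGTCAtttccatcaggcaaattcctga

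RAD51B (ENSG00000182185.19) runs over 910 kb of the forward strand of chromosome 14, from 67819779 to 68730218, with 24 annotated transcripts. Its gene body held 31 full-length regions, or 3.4 per 100 kb, which covered 1.65% of its length. Of these, 28 lay in introns, 2 overlapped exons of transcripts other than the canonical one, and 1 overlapped canonical exon 1. The canonical transcript ends at 68478093, and 13 of the 31 regions lay beyond that end, in the 252 kb that only longer transcripts reach. The density was 2.73 regions per 100 kb within the canonical span and 5.16 per 100 kb beyond it.

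Regions were more numerous towards the end of the gene that faces ZFP36L1. RAD51B was cut into 3 equal parts of 303 kb. The first part held 6 regions (19.4% of the 31, exact 95% limits 7.45% to 37.5%). The middle part held 8 (25.8%, 11.9% to 44.6%), and the last part held 17 (54.8%, 36% to 72.7%). The binomial limits treat regions as independent and cover counting error only. Many regions stood in groups, as described below, so the limits are likely too narrow. They are not a test of an even placement. Per 100 kb this was 1.98, 2.64 and 5.6 regions. Within the canonical span the pattern was not seen: cut in the same way, its last part held 33.3% of its 18 regions. With the whole gene cut into 2 equal parts instead, the one nearest to ZFP36L1 held 19 of the 31 regions (61.3%), a less marked excess. Of the 10 canonical introns, introns 1 to 6 held none, intron 7 (405 kb) held 11, and introns 8, 9 and 10 held 2 each. Intron 10 is 9.4 kb long.

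**Figure D1:**
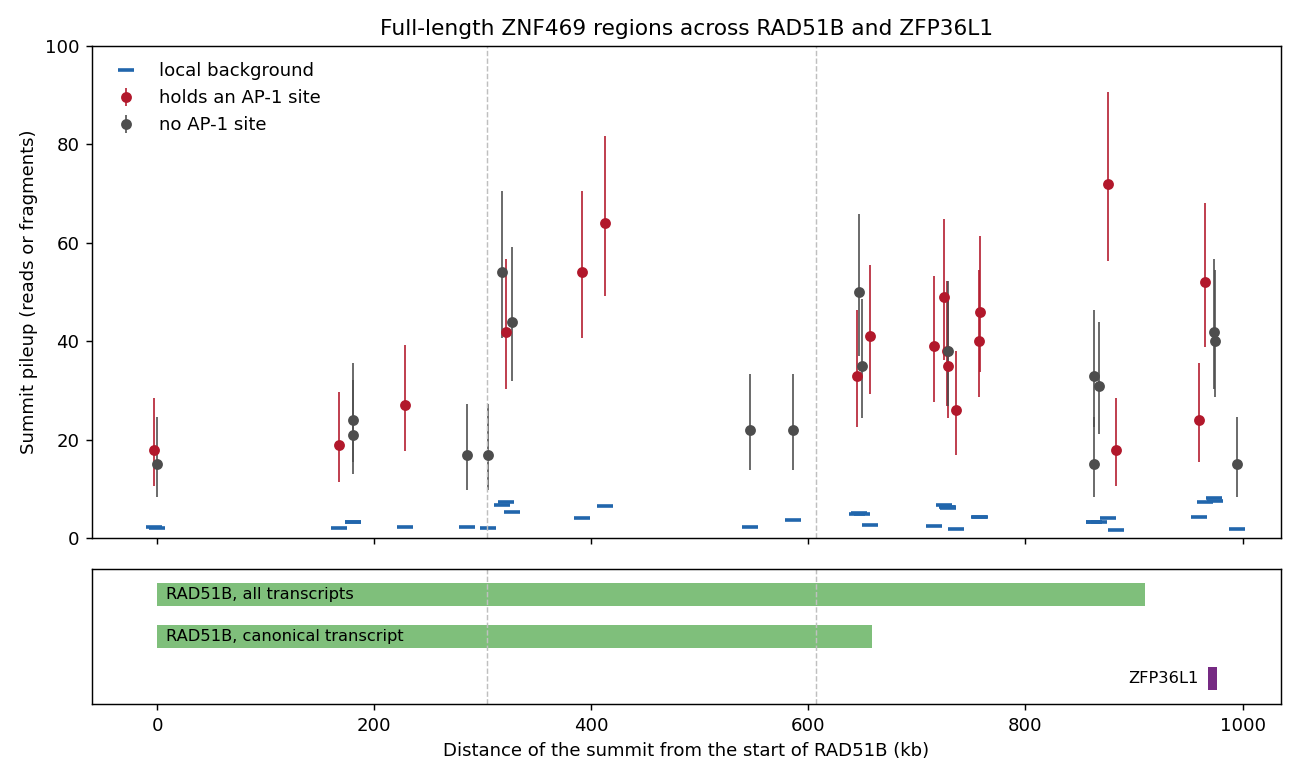
Summit pileup of each full-length region (points, exact 95% Poisson limits as bars) and its local background (blue dashes) against distance from the start of RAD51B, with gene spans below and dashed lines between the 3 parts of RAD51B. Pileups above 60 occur at 413 kb (64) and 876 kb (72), and the last part holds 17 of the 31 RAD51B regions.

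The regions were unevenly spaced, and their spacing was not compared with that in other genes or at random positions. Of the 36 gaps between neighbouring summits in the joint RAD51B and ZFP36L1 window, 20 were within 10 kb, the median gap was 8.05 kb and the widest was 167 kb, from the RAD51B start to the next region. Joining summits within 10 kb gave 8 groups of 2 or more regions, holding 28 of the 37 regions, and 9 single regions. The largest group held 6 regions over 20.3 kb at 716 to 736 kb from the RAD51B start, with pileups of 26 to 49, and 5 of them held an AP-1 site. A group of 5 regions at 863 to 883 kb had pileups of 15 to 72. Groups of 4 regions stood at 645 to 657 kb, with pileups of 33 to 50, and at 960 to 975 kb, where the group included the start of ZFP36L1 and had pileups of 24 to 52. A group of 3 regions at 318 to 327 kb had pileups of 42 to 54.

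With regions placed by summit in 100-kb bins counted from the RAD51B start, the numbers of regions were 0, 3, 2, 5, 1, 2, 4, 8, 5 and 5 over the first 1000 kb and 0 in the next bin. Regions did not end there: the bin from 1100 to 1200 kb held 4 and the bin from 1200 to 1300 kb held 5. The megabase before RAD51B held 15 regions, including the exon 1 region, whose summit is just before the start. The bin from 700 to 800 kb held the highest count, 8, of which 7 held an AP-1 site. On a fixed grid of 30894 bins of 100 kb across the genome, 67.6% held no region, 1.63% held at least 5 and 0.398% held at least 7. All 10 grid bins that the locus spans held at least 1 region, and the fullest held 8. The grid includes assembly gaps, which count as empty, and the locus was chosen by its count of regions.

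**Figure D2:**
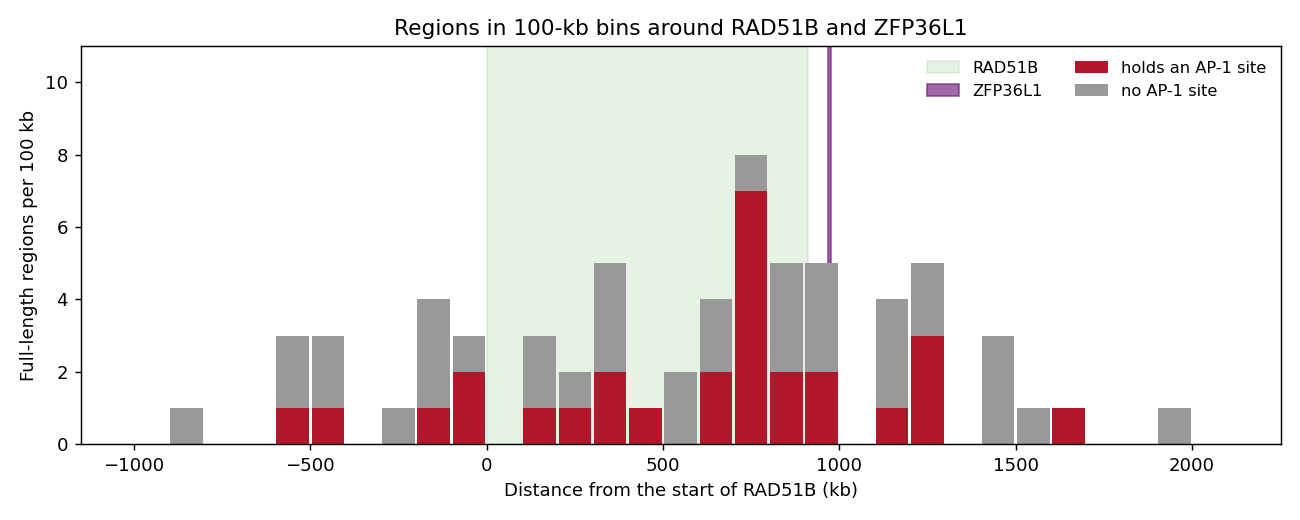
Number of full-length regions in 100-kb bins around RAD51B (green shading) and ZFP36L1 (purple line), split by whether a region holds an AP-1 site (red) or not (grey). The bin at 700 to 800 kb stands highest with 8 regions, 7 of them with an AP-1 site. The bin after ZFP36L1 is empty, and the bins at 1100 to 1200 kb and 1200 to 1300 kb hold 4 and 5 regions.

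The strongest region of RAD51B, at chr14:68694999-68695966, had a summit pileup of 72 (exact Poisson limits 56.3 to 90.7) over a local background of 4.07. The pileup is the number of reads or fragments stacked at the summit of the pooled libraries, and the background is the number the peak caller expected there. Its fold (column 7, pileup over background with 1 added to each) was 14.4 and its −log10 p (column 8) was 62.9. It ranked 83 by pileup and 96 by fold among all full-length regions. The region held 2 AP-1 sites, the one nearest the summit 85 bp away as printed above, overlapped the start of the long noncoding RNA gene ENSG00000287167, and lay 97.5 kb from the ZFP36L1 start.

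Next by pileup was chr14:68232547-68233137, in the middle part, with a pileup of 64 (49.3 to 81.7), a background of 6.55 and a fold of 8.61. A pileup of 54 (40.6 to 70.5) was reached at both chr14:68210613-68211557, where the background was 4.13 and the fold 10.7, and chr14:68137648-68138171, where the background was 6.74 and the fold 7.11. The Poisson limits of these regions overlap those of the strongest, so their order by pileup is not resolved at this depth. By fold, the RAD51B regions after the strongest were chr14:68535264-68535908 at 11.5 and chr14:68476068-68476781 at 11.3. The former has its AP-1 site 1 bp from the summit and is the sequence printed for 716 kb. In contrast, the region on canonical exon 1 of RAD51B, chr14:67819597-67820021, had a pileup of 15 (8.4 to 24.7), a fold of 5.01 and the lowest IDR score of the 42 (542, where the lowest of the whole list was 540). The lowest fold, 3.72 with a pileup of 15, was at chr14:68682477-68682660, a narrow record of 184 bp beside a region with a pileup of 33.

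By part of the gene, the median pileup was 20 in the first (range 15 to 27), 43 in the middle (17 to 64) and 38 in the last (15 to 72). The range of the first part overlaps those of the other 2. The median local background was 2.24, 4.69 and 4.41 in the same order, so background rose together with pileup, and the median fold was 5.69, 6.97 and 7.58. The part of background in the pileup differences was not tested.

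Between the end of RAD51B and the 3′ end of ZFP36L1 lie 57.4 kb, which held 2 regions, both with an AP-1 site. The nearer to ZFP36L1, chr14:68784845-68785393, had a pileup of 52 (38.8 to 68.2), a background of 7.31 and a fold of 6.38, and lay 7.99 kb from the canonical ZFP36L1 start, past the end of the gene. The other, chr14:68780015-68780288, had a pileup of 24 over 4.31 and a fold of 4.71, and overlapped the long noncoding RNA gene ENSG00000289583. These are the values just inside and outside the flank of RAD51B: the region with a pileup of 24 lies 49.8 kb past the gene and the one with 52 lies 54.6 kb past it and entered through the ZFP36L1 window.

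ZFP36L1 (ENSG00000185650.10), on the reverse strand from 68787660 to 68796253, held 2 regions in its 8.59 kb. One, chr14:68793037-68793807, overlapped the canonical start at 68793067 and had a pileup of 42 (30.3 to 56.8). The other, chr14:68794451-68794732, overlapped an exon of another transcript and had a pileup of 40 (28.6 to 54.5). Neither held an AP-1 site. Their backgrounds, 8.27 and 7.66, were the highest of the 42 regions, and their folds were 4.64 and 4.73. One further region lay upstream, 21.7 kb from the canonical start, with a pileup of 15 and a fold of 5.47. No region was found past it within 50 kb, and the next one outside lay 144 kb from the gene.

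RefSeq (GRCh38.p14) lists 5 promoter stretches for 3 of the 4 genes. Those of RAD51B have starts at 67823541 and 67823592 and do not cover its canonical start at 67819779, which the exon 1 region overlapped. Only the ZFP36L1 promoter whose start is at 68793416 was overlapped by a region, the one at the canonical start 349 bp downstream. Its 250 bases before that start, chr14:68793417-68793666, are printed on the reverse strand from 5′ to 3′ because they hold the single cyclic AMP response element TGACGTCA among the 42 regions (capitals, a palindrome). This element occurred in 1.12% of all full-length regions and in 1.85% of the 35116 RefSeq promoter stretches of 300 bases.
ZFP36L1 promoter: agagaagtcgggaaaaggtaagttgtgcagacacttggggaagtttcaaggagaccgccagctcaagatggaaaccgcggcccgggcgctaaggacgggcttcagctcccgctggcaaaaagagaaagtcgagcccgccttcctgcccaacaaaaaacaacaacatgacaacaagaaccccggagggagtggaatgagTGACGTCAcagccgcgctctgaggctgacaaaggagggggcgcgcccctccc

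ZFP36L2 (ENSG00000152518.8, chr2:43222402-43226606, reverse strand) held no region in its gene body and 2 within 50 kb. One, chr2:43222040-43222280, lay 0.122 kb past the 3′ end of the gene with a pileup of 20 (12.2 to 30.9), a fold of 5.48 and 1 AP-1 site. The other, chr2:43268998-43269484, lay 42.4 kb upstream within THADA, with a pileup of 23 (14.6 to 34.5), a fold of 9.06 and no AP-1 site. The nearest regions outside the window lay 63.7 kb and 67.2 kb from the gene, with pileups of 11 and 18.

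ZFP36 (ENSG00000128016.7, chr19:39406847-39409412, forward strand) also held no region in its gene body and had 3 in its window. The one nearest to its start, chr19:39403549-39404206, lay 2.97 kb upstream and had a pileup of 20 (12.2 to 30.9), a fold of 6 and 3 AP-1 sites, the most of any of the 42. The strongest, chr19:39412304-39412554, ended 115 bp before an annotated start of PLEKHG2, and had a pileup of 43 (31.1 to 57.9) over a background of 2.55. Its fold of 12.4 was the second highest of the 42, and it held no AP-1 site but the TEAD motif printed above. The third, chr19:39435944-39436173, covered the divergent starts of RPS16, a ribosomal protein gene, and SUPT5H, a transcription elongation factor gene, with a pileup of 20 and a fold of 8.75. SAMD4B, PAF1 and MED29, which also overlap the window, held none.

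**Figure D3:**
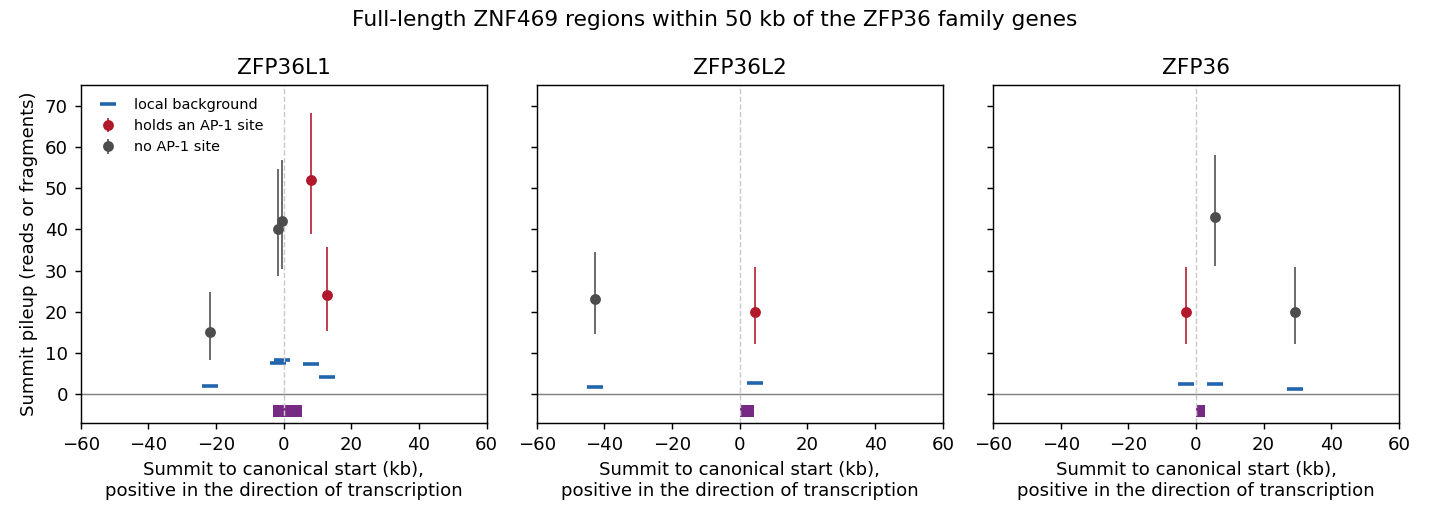
Summit pileup (points, exact 95% Poisson limits) and local background (blue dashes) of regions within 50 kb of ZFP36L1, ZFP36L2 and ZFP36, against distance from the canonical start in the direction of transcription, with purple bars for the genes. ZFP36L1 has pileups of 42 and 40 at and just before its start, whereas ZFP36L2 and ZFP36 have no region in the gene.

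The ZFP36L1 window held 4.6 regions per 100 kb, the ZFP36 window 2.92 and the ZFP36L2 window 1.92, from counts of 5, 3 and 2. This order turned when the upper 50% of the list by fold was kept, which left 0, 2 and 1 regions, and a score of at least 830 left 3, 2 and 0. Of the 42 regions, 5 lay within 1 kb of the canonical start of a protein-coding gene, namely ZFYVE26, RAD51B, ZFP36L1, PLEKHG2 and RPS16. The ZFYVE26 region, in the upstream flank of RAD51B, had a pileup of 18 and a fold of 5.71. When starts of all transcripts were counted, noncoding ones included, and within 3 kb, 20 of the 42 (47.6%) were promoter regions, beside 39.3% of all full-length regions.

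Set against the whole list, the 42 regions had high pileups over high backgrounds. Their median pileup was 33 (range 15 to 72) and that of all full-length regions was 20. Of the 42, 31 were above the median of all and 10 were above the 95th percentile of 42. The median background was 3.35 against 1.82, and 39 of the 42 were above the median of all. The median fold, in which the background is the divisor, was 6.35 against 7.36, and 27 of the 42 were below the median of all. The median −log10 p was 17.8 against 15. Widths were alike, with medians of 428 and 440 bp, and so was GC content, with medians of 45.9% and 44.6%. The highest IDR score, 1000, was given to 50% of the 42 and to 33% of all. What raises the background at this locus was not tested.

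**Figure D4:**
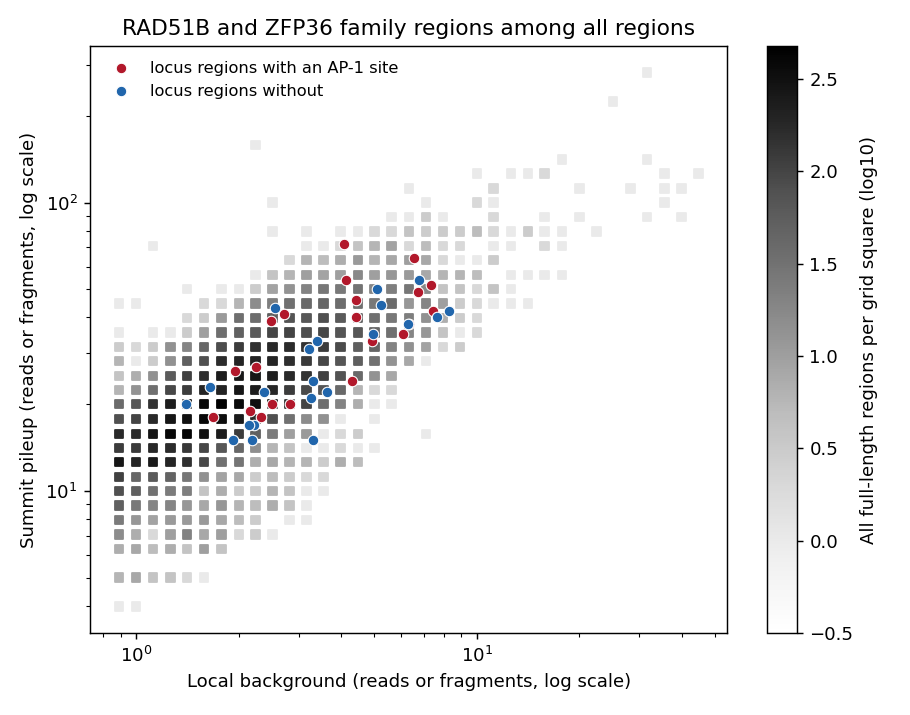
Summit pileup against local background, both on log scales, for all 19108 full-length regions (grey squares, darker where more regions fall) and the 42 regions of the 4 windows, red with and blue without an AP-1 site. The 42 lie towards the upper right, with a median pileup of 33 against 20 and a median background of 3.35 against 1.82.

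An AP-1 site was present in 21 of the 42 regions (50%, exact 95% limits 34.2% to 65.8%), beside 44.1% of all full-length regions, a share within those limits. Outside promoters, 14 of 22 (63.6%, 40.7% to 82.8%) held a site, beside 52.6% of all regions outside promoters. In RAD51B alone the site was found in 16 of 31 regions (51.6%, 33.1% to 69.8%). By part, 2 of 6, 3 of 8 and 11 of 17 regions held a site, and the limits for these shares overlap widely. The nearest site was a median of 49 bp from the summit, beside 56 bp for all regions with a site. It was centred within 10 bp of the summit in 19% of the 21 and in 10.6% of all.

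The DNA of the locus held more AP-1 sites than the regions used. The joint window of 1076 kb held 195 sites, of which 22 (11.3%) lay in regions that covered 1.66% of its length. In RAD51B, 2 of 44 sites in the first part, 3 of 54 in the middle part and 14 of 63 in the last part lay in regions. Outside the regions the density was alike in the 3 parts, at 0.14, 0.171 and 0.166 sites per kb, while inside them it was 0.725, 0.619 and 1.89 per kb. The last of these values rests on 14 sites. Inside all regions of the joint window the density was 1.23 sites per kb. That is near the 1.18 per kb of all full-length regions (1.39 outside promoters).

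The median pileup of regions with an AP-1 site was above that of regions without. It was 38 (range 18 to 72) with a site and 24 (15 to 54) without, and the ranges overlap. In all full-length regions the medians were 21 and 20. Fold medians were 6.48 and 5.81 in the 42, and 7.51 and 7.24 in all. Outside promoters in RAD51B, the 13 regions with a site had a median pileup of 39 (range 18 to 64) and a median fold of 8.61. The 6 without had medians of 22 (17 to 54) and 6.28, and the pileup ranges overlap. For all full-length regions outside promoters, median pileups were 21 with a site and 19 without, and median folds 7.53 and 7.19. In promoter regions of the 4 windows the order was the opposite, with median pileups of 24 in the 7 with a site and 33 in the 13 without. For all full-length promoter regions the medians were 22 and 21. The 7 came from different places: those within RAD51B had pileups of 72, 49 and 38, and those outside it 18 to 24. Of the other motifs, searched on both strands, the TEAD letters CATTCCA were in 8 of the 42 (19%, 14.5% of all), the RUNX letters TGTGGTT in 5 (11.9%, 14.1% of all) and the SP/KLF letters GGGCGG in 5 (11.9%, 20.3% of all). Among RefSeq promoter stretches, 4.95% held the AP-1 letters and 45% the SP/KLF letters.

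**Figure D5:**
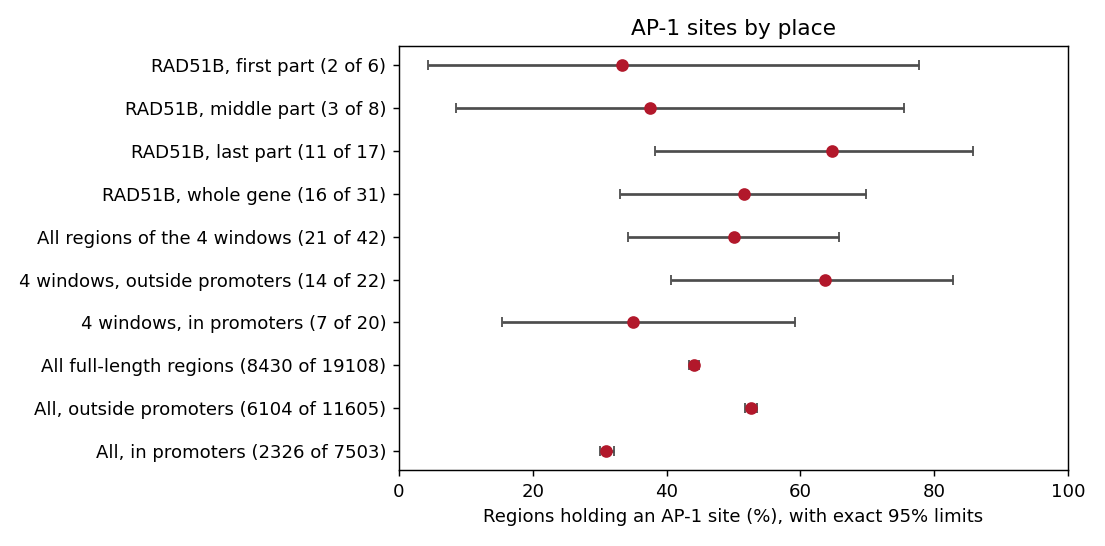
Percentage of full-length regions holding an AP-1 site, with exact 95% binomial limits, by part of RAD51B, in the 4 windows and in the whole list, in and outside promoters. The last part of RAD51B stands at 64.7% (11 of 17) and all full-length regions at 44.1%, with overlapping limits.

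RAD51B was compared with protein-coding genes of 0.5 to 2 times its length, since a long gene has more room for regions. Of 382 such genes, 283 (74.1%) held at least 1 region, beside 33.7% of all 20007 protein-coding genes. Their median was 2 regions and their upper quartile 4. The genes with counts nearest to the 31 of RAD51B were DST with 24, PDE4D with 24, DLGAP1 with 21, RUNX1 with 21 and NRG1 with 20. DST encodes a cytoskeletal linker, PDE4D a cyclic AMP phosphodiesterase, DLGAP1 a scaffold protein of synapses, RUNX1 a transcription factor and NRG1 a ligand of ERBB receptors. Per 100 kb DST was denser, with 4.83 regions against 3.4, and the other 4 were sparser, with 1.55 to 2.19. The share of regions with an AP-1 site was 76.2% in DLGAP1 (16 of 21), 57.1% in RUNX1 and 55% in NRG1. It was 45.8% in DST and 41.7% in PDE4D, beside 51.6% in RAD51B and 44.1% of all full-length regions. Among the 3665 genes over 100 kb, RAD51B ranked 134 by density, and the median was 0.505 regions per 100 kb.

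Other genes of homologous recombination held few regions each. Of 19 listed, 13 held at least 1, with 19 regions in all. Of these regions, 13 were promoter regions (39.3% of all full-length regions are) and 5 held an AP-1 site (44.1% of all do). The share of genes, 68.4%, stands above the 33.7% of all protein-coding genes, but the median length of these genes is 78.3 kb against 27.5 kb for all. BARD1, the partner of BRCA1, held 3 regions. BRCA1, RAD52, RAD54B and RBBP8 held 2 each. BRCA2, MRE11, NBN, PALB2, RAD51C, RAD54L, SWSAP1 and XRCC3 held 1 each. The highest pileup was 31, reached in BRCA1 at its promoter and in RAD54L, and RAD51C, whose product pairs with that of RAD51B, had 1 region with a pileup of 15.

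In the mRNA decay machinery with which ZFP36 proteins work or compete, 13 of 27 genes (48.1%) held a region. The exact limits of that share, 28.7% to 68.1%, hold the 33.7% of all protein-coding genes, and the median length of these genes is 47.1 kb against 27.5 kb for all. These were 18 regions, of which 16 were promoter regions (39.3% of all full-length regions are) and 1 held an AP-1 site (44.1% of all do). CNOT9 held 3, PAN2, PAN3 and TIA1 held 2 each, and CNOT1, CNOT3, CNOT7, CNOT8, DCP2, HNRNPD, MAPK14, TIAL1 and XRN1 held 1 each. The highest pileup, 36, was at HNRNPD, which encodes another AU-rich element binding protein. Of 12 transcripts widely described as ZFP36 family targets, 4 (33.3%, beside 33.7% of all protein-coding genes) had a region in the gene: CXCL8 with a pileup of 26, IER3 with 39, IL6 with 21 and MYC with 28. The exact limits of that share are 9.92% to 65.1%, and the median length of these 12 genes is 4.66 kb against 27.5 kb for all. Of these 4 regions, 2 held an AP-1 site (44.1% of all full-length regions do), those of CXCL8 and IL6.

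No dZF region fell in any of the 4 windows. The dZF list held 54 regions in all and 1 on chromosome 14, 47.5 Mb from the RAD51B regions, and the nearest dZF regions to ZFP36 and ZFP36L2 were 2.11 Mb and 39.1 Mb away. Only 10 protein-coding genes (0.05%) held a dZF region, so a count of 0 for these windows is near the background of that list. None of the genes of the 3 lists held one, nor did DST, PDE4D, DLGAP1, RUNX1 or NRG1.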

How the data were processed

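CUT&RUN for ZNF469 was performed by the authors in 6 LX-2 libraries, 3 per construct. Their processing notes name bcl2fastq, Bowtie2 2.3.4.3, MACS2 2.2.5, R 4.2.1 and deepTools 3.5.1, with no roles. The control library is not given in the sources used here. The authors pooled each group into 1 peak list filtered by irreproducible discovery rate (IDR). The deposited lists hold an IDR score, a fold ratio (column 7) and a −log10 p-value (column 8). These are the authors' peak calls.

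Whole-number pileups and backgrounds were recovered from columns 7 and 8 as fold = (pileup + 1)/(background + 1) and the Poisson tail. 100% of records were explained within 0.001 in −log10 p, and the step was tested on simulated data. Limits are exact Poisson for pileups and Clopper-Pearson for shares, at 95%. They cover counting error only. Depth per library was not analysed here. Motifs were searched on both strands of hg38. A promoter region lay within 3 kb of any GENCODE start. Python 3.11.15, pandas 2.3.3 and scipy 1.17.1 were used. A gene's regions were placed in 3 equal parts by midpoint.

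The genes, gene lists, motifs and rules were chosen with earlier results of these data known. Named were the 4 genes, protein-coding genes overlapping the windows, genes of the 3 lists that hold a region, the 5 genes of like length with the most regions, and the strongest region of each window. Alternatives were stricter scores, folds and pileups, other flanks, placement by summit and the canonical transcript.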

Additional observations from a re-analysis of the deposited data

How the results depend on the processing

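Of 71 alternative values for 10 results, 24 moved, that is, left a range of 1.5 times for a count or the median fold, or the exact 95% limits for a share or the median pileup. For the median pileup these are Poisson limits of a single count, which do not measure the spread of a median. Its rise from 33 to 40 at a score of at least 830 is therefore not among the 24. The other 47 include smaller shifts: a score of at least 830 left 22 regions in RAD51B and 25 in the joint window, and an AP-1 site within 100 bp of the summit was held by 35.7% of the 42 (32.7% of all). Keeping the upper 50% of the list by fold left 12 regions in RAD51B and 12 in the joint window, 0 in the ZFP36L1 window and 1 in the ZFP36L2 window, with 75% of RAD51B regions in its last part. The upper 25% by fold left 6, 6, 0 and 1, with 83.3% in the last part, an AP-1 site in 66.7% of 9 regions (47.6% of all kept) and a median fold of 10.7. The upper 25% by pileup left 20, 23, 3 and 0, and 1 in the ZFP36 window. A score of at least 830 left 3 regions near ZFP36L1 and 0 near ZFP36L2. A flank of 100 kb gave 8 and 4, and a flank of 20 kb gave 1 near ZFP36L2. The canonical RAD51B span held 18 regions, 33.3% in its last part. The stricter settings keep fewer regions, and other flanks or the canonical transcript cover a different span. A filter on fold also raises the median fold by itself. Why the shares moved was not tested. Placing regions by their summit moved none of the 10 results. The dZF count stayed 0 in every alternative run, of which only the flank of 100 kb could have raised it. These dZF values are among the 47. Also among them is the share of RAD51B regions in the nearer of 2 equal parts, 61.3%, which was set against the limits for 1 of 3 parts. No paired analysis was possible because each deposited list pools its 3 libraries, and leaving out each library was not run for the same reason. Depth limits the order of single regions: a pileup of 15 has limits of 8.4 to 24.7.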
